A study of Mus musculus with 29 samples.

Results

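Dntt, Aatk and Aqp8 were followed in livers of mice fed omega-3 phospholipids, rosiglitazone or both. The 3 genes were picked because their arrays gave large falls with phospholipids and because they lie outside the known lipid pathways, so that difference is described here and not tested. They were found by the gene name in the array files. The 3 names have 4 probes, 1 for Dntt, 1 for Aatk and 2 for Aqp8, among 31791 names and 39429 probes that were not controls. All 4 probes were well above background in the liver channel on all 29 arrays, none was saturated, and all 4 were among the 23943 probes tested.

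Each array measured the liver of 1 male C57BL/6N mouse, 3 months old at the start and fed for 7 weeks. All 4 groups ate a high-fat diet made with corn oil (cHF), which was the control when given alone, so the study has no lean group among the arrays used here. The diet carried omega-3 phospholipids and rosiglitazone in 8 mice (cHF+PC+R), omega-3 phospholipids in 8 (cHF+PC), a low dose of rosiglitazone in 6 (cHF+R) and neither in 7 (cHF). The phospholipids are rich in phosphatidylcholine, carry EPA and DHA, which are omega-3 fatty acids of marine origin, and took the place of about 7% of the lipid in the food. Rosiglitazone is an insulin sensitiser that acts through the nuclear receptor PPAR-gamma. Levels are log2 ratios of the Cy5 channel, which holds the liver, over the Cy3 channel, which holds the pool, so 0 is the level of the pool and negative levels lie below it.

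Dntt encodes terminal deoxynucleotidyl transferase, a DNA polymerase of family X that needs no template. It adds nucleotides to the ends of antigen receptor gene segments while immature lymphocytes join them, and it is best known from thymus and bone marrow. Aatk encodes apoptosis-associated tyrosine kinase, a membrane-anchored lemur tyrosine kinase that was first described in mouse myeloid cells undergoing apoptosis and is abundant in brain, where Cdk5 phosphorylates it and it acts on recycling endosomes. Aqp8 encodes a water channel of hepatocytes and other epithelia, which lies in intracellular vesicles, mitochondria and the bile canalicular membrane and also passes ammonia and hydrogen peroxide. In bulk liver, fewer cells of a type and less RNA per cell cannot be told apart.

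On the assembly GRCm38.p6, Dntt lies at chr19:41029275-41059525, Aatk at chr11:120007311-120047183 and Aqp8 at chr7:123462294-123468003. The array files give the probe positions on mm9. There the Dntt probe is at chr19:41133936-41133995 and starts at base 2050 of its transcript, and the Aatk probe is at chr11:119868694-119868753 on the minus strand and starts at base 5137. The Aqp8 upstream probe is at chr7:130606210-130606269 and starts at base 290 of the transcript, and the Aqp8 3' probe is at chr7:130611453-130611512 and starts at base 1421. The 60 bases of the Aqp8 upstream probe are shown because it reads another stretch of the same transcript than the 3' probe and so gives a second reading of the gene that stands furthest from the lymphoid and neural genes of the set.
Aqp8 upstream probe, chr7:130606210-130606269, mm9, plus strand: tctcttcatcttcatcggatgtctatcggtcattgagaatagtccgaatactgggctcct

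The 250 bases before the start of each gene were read from the RefSeq promoter table of GRCm38.p6, which held all 3 genes, with 4 starts for Aatk. They are shown as a description, since the joint fall of the 3 genes with phospholipids follows from the choice. The motifs named below were searched on both strands, and capitals mark the matches.
Dntt, chr19:41029025-41029274, plus strand: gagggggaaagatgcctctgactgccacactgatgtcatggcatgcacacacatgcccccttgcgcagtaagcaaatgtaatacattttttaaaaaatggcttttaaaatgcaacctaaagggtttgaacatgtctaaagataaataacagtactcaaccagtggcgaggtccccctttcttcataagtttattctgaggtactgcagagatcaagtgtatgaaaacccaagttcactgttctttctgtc
Aatk, start 1, chr11:120047153-120047402, minus strand: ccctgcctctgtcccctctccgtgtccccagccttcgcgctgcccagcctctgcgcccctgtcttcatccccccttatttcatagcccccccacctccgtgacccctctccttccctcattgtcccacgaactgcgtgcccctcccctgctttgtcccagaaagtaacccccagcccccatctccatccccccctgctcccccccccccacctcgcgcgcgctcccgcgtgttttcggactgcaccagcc
Aatk, start 3, chr11:120041782-120042031, minus strand: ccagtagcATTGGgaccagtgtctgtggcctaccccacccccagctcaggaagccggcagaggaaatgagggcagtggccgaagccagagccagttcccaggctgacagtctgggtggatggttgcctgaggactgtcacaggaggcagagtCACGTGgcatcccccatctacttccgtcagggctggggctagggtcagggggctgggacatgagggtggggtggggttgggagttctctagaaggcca
Aqp8, chr7:123462044-123462293, plus strand: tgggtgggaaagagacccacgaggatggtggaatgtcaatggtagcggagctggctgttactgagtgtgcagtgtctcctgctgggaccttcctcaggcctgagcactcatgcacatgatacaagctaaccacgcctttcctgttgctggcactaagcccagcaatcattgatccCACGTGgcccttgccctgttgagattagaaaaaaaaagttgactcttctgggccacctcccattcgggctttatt

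The base composition of these windows differed, with 41.6% G and C in Dntt, 67.6% at start 1 of Aatk and 52.4% in Aqp8. The E-box CACGTG, which basic helix-loop-helix factors bind, was found 75 to 70 bases before the start of Aqp8 and 98 to 93 bases before start 3 of Aatk, where CCAAT also occurred on the other strand 242 to 238 bases before the start. CACGTG was in 6.021% and CCAAT in 33.85% of 32851 mouse promoters of the same length. The sterol response element TCACNCCAC was in none of the windows of the 3 genes and in 1.053% of all promoters. The D-box TTATGNAA was in 3.068% of all promoters, the GC box GGGCGG in 32.74% and TATAAA in 12.37%, and none of these was in the windows of the 3 genes. The same held for the nuclear receptor repeats DR1, found in 0.0335% of promoters, and DR4, found in 0.0152%. A match is a run of letters, and no binding was measured.

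The 29 arrays shared 8 slides, and no slide held more than 1 array of any group. Each slide was scanned as a unit, so slide and scan cannot be told apart. Replicate 4 of cHF had 80.8% of its spots well above background in Cy5, while the other 28 arrays had between 55.02% and 62.5%. Over 39429 probes, the lowest correlation between any pair of arrays was -0.329, and the ratio's direction follows the dyes the labels state. Over all probes, 3 arrays spread furthest from their group means. Their deviations had an SD of 0.194 in cHF+PC+R replicate 2, 0.205 in cHF+PC replicate 2 and 0.215 in cHF+R replicate 6, against a median of 0.144 over the 29 arrays and 0.182 on the next one. These 3 livers also held the lowest Aatk level of their groups, so values without them are given beside the results that rest on them. All 8 hepatocyte markers looked for, among them albumin, passed the filter.

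**Figure D1:**
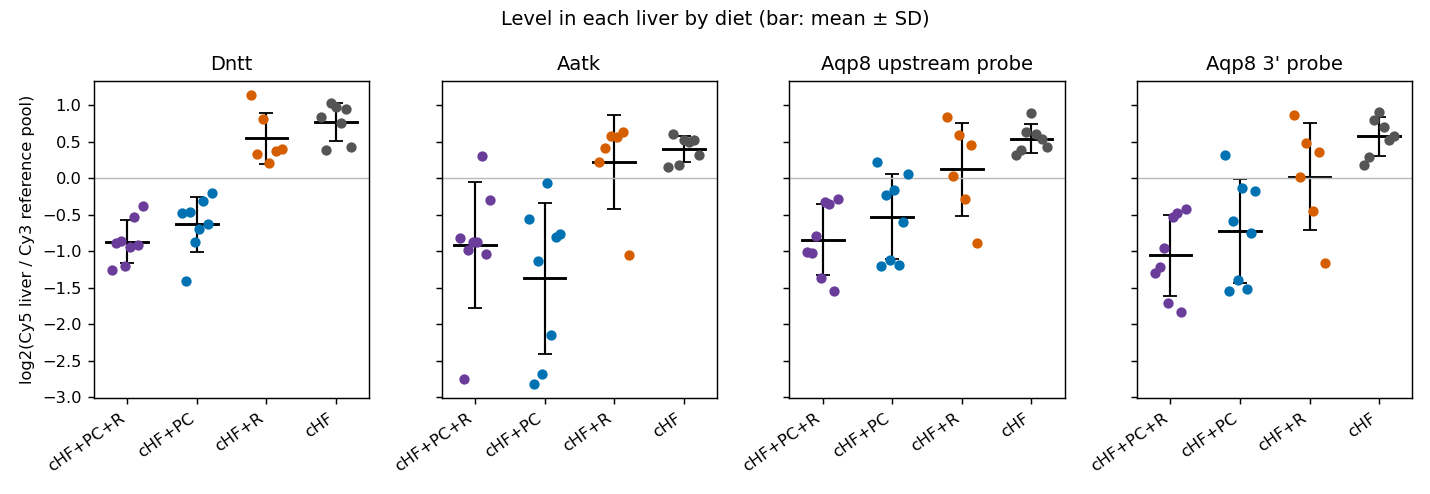
Level of each probe (vertical axis, log2 ratio of liver to the common pool) in each of the 29 livers, by diet from left to right cHF+PC+R, cHF+PC, cHF+R and cHF, with 1 panel per probe. Points are livers and bars are the mean ± SD. All 16 livers with phospholipids lie below all 13 without them for Dntt, while the Aatk points of cHF+PC run from -2.81 to -0.07.

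Dntt was low in every liver with phospholipids. Its level lay between -1.25 and -0.38 in the 8 cHF+PC+R livers, with a median of -0.91, and between -1.41 and -0.21 in the 8 cHF+PC livers, with a median of -0.56. The 6 cHF+R livers lay between 0.21 and 1.13, with a median of 0.39. The 7 cHF livers lay between 0.39 and 1.03, with a median of 0.84. Thus the highest Dntt level with phospholipids was 0.42 below the lowest without them, and the groups with and without phospholipids did not overlap. Before any normalization, the mean Cy5 signal of the Dntt spot was between 279.6 and 891.0 in the cHF+PC livers and between 869.6 and 1829.3 in the cHF livers.

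The group means of Dntt were -0.87 ± 0.30 in cHF+PC+R (SD, n = 8), -0.63 ± 0.38 in cHF+PC (SD, n = 8), 0.54 ± 0.35 in cHF+R (SD, n = 6) and 0.77 ± 0.26 in cHF (SD, n = 7). The fitted difference of cHF+PC against cHF was -1.40 (SE 0.158), or 2.64-fold lower. For cHF+PC+R against cHF+R it was -1.42 (SE 0.165), and for cHF+PC+R against cHF -1.64 (SE 0.158), or 3.11-fold lower. The comparisons share arrays, so they are not independent readings. Of all probes 3.85% passed the test in cHF+PC against cHF, 1.99% lower and 1.85% higher. In cHF+PC+R against cHF+R 6.7% passed, 3.58% lower and 3.13% higher, and in cHF+PC+R against cHF 9.03% passed, 4.5% lower and 4.53% higher. In these 3 comparisons 0.631%, 0.613% and 1.13% of probes had every liver of the first group below every liver of the second, as Dntt did. Without the 3 arrays that stand apart, these differences were -1.29, -1.44 and -1.64. A separation as complete as that of Dntt, all 16 livers with phospholipids below all 13 without, was seen for 20 of the 22497 probes with a value on every array (0.0889%). Since Dntt was chosen for its low level, nothing is read from that share. The other probes with this pattern include those of Fdps, Pmvk and Dhcr7, enzymes of cholesterol synthesis, and of Rdh11, a retinol dehydrogenase.

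Aatk had the widest spread of the 3 genes within the phospholipid groups. Its level lay between -2.75 and 0.31 in the cHF+PC+R livers, with a median of -0.88, and between -2.81 and -0.07 in the cHF+PC livers, with a median of -0.97. It lay between -1.05 and 0.63 in the cHF+R livers, with a median of 0.49, and between 0.16 and 0.61 in the cHF livers, with a median of 0.49. In cHF+PC the levels of replicates 2, 4 and 6 were -2.81, -2.69 and -2.15, while the other 5 livers lay at -1.14 or above. In cHF+PC+R replicate 2 was at -2.75 with the next liver at -1.04, and in cHF+R replicate 6 was at -1.05 with the next at 0.22. No cHF liver was that low.

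The means of Aatk were -0.92 ± 0.87 in cHF+PC+R (SD, n = 8), -1.37 ± 1.04 in cHF+PC (SD, n = 8), 0.23 ± 0.64 in cHF+R (SD, n = 6) and 0.40 ± 0.18 in cHF (SD, n = 7). Every cHF+PC liver was below every cHF liver, by a gap of 0.22, as was seen for 0.631% of probes with a value on every array. This lies on the contrast the genes were chosen on, so nothing is read from it. Of the 8 cHF+PC+R livers, 7 were below every cHF liver and 1 was below every cHF+R liver. The fitted difference was -1.77 (SE 0.374) for cHF+PC against cHF, or 3.42-fold lower, -1.14 (SE 0.391) for cHF+PC+R against cHF+R and -1.32 (SE 0.374) for cHF+PC+R against cHF. Without the 3 arrays that stand apart they were -1.57 (SE 0.275), -1.14 (SE 0.301) and -1.06 (SE 0.275).

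Aqp8 was read by both of its probes, and they gave the same order of groups. At the 3' probe the level lay between -1.84 and -0.43 in the cHF+PC+R livers, with a median of -1.09, and between -1.54 and 0.31 in the cHF+PC livers, with a median of -0.67. It lay between -1.16 and 0.87 in the cHF+R livers, with a median of 0.19, and between 0.19 and 0.90 in the cHF livers, with a median of 0.58. All 8 cHF+PC+R livers were below all cHF livers, by a gap of 0.61, whereas 7 of the 8 cHF+PC livers were, the exception being replicate 1 at 0.31. At the upstream probe all 8 cHF+PC+R and all 8 cHF+PC livers were below all cHF livers, by gaps of 0.61 and 0.10. Of probes with a value on every array, 1.13% and 0.631% separated in this way in the 2 comparisons. Nothing is read from it, since the genes were chosen for this fall. Against cHF+R the phospholipid groups overlapped, with 4 of 8 cHF+PC+R livers below all cHF+R livers.

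The means at the 3' probe of Aqp8 were -1.06 ± 0.55 in cHF+PC+R (SD, n = 8), -0.73 ± 0.71 in cHF+PC (SD, n = 8), 0.02 ± 0.73 in cHF+R (SD, n = 6) and 0.57 ± 0.26 in cHF (SD, n = 7). At the upstream probe they were -0.84 ± 0.48, -0.53 ± 0.58, 0.12 ± 0.64 and 0.54 ± 0.20 in the same order of groups. The 3' probe thus gave the wider spread between diets. For cHF+PC against cHF the fitted difference was -1.30 (SE 0.285) at the 3' probe and -1.07 (SE 0.242) at the upstream probe, or 2.46-fold and 2.10-fold lower. For cHF+PC+R against cHF+R it was -1.08 (SE 0.297) and -0.96 (SE 0.252), and for cHF+PC+R against cHF -1.63 (SE 0.285) and -1.38 (SE 0.242). Without the 3 arrays that stand apart, the 3' probe gave -1.18, -1.29 and -1.61. Deviations of the livers from their group means at the 2 probes were nearly alike, with a Pearson r of 0.986 over 29 livers.

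Set among all probes, the 4 stood near the bottom of the ranking by fitted difference. In cHF+PC against cHF, Aatk was 3rd from the most negative of 23943 probes, between Apoa4 at -1.84 and LOC674674 at -1.72. Dntt was at position 13, between Acacb, which makes malonyl-CoA, at -1.43 and Cidec, a lipid droplet protein, at -1.36. The 3' probe of Aqp8 was at position 17, between Sc4mol, a sterol oxidase, at -1.30 and Gpc1, a heparan sulphate proteoglycan, at -1.29, and its upstream probe was at position 41, between Celsr1 at -1.07 and Tsc22d1 at -1.02. The members were taken from this end of the ranking, so their positions follow from the choice.

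**Figure D2:**
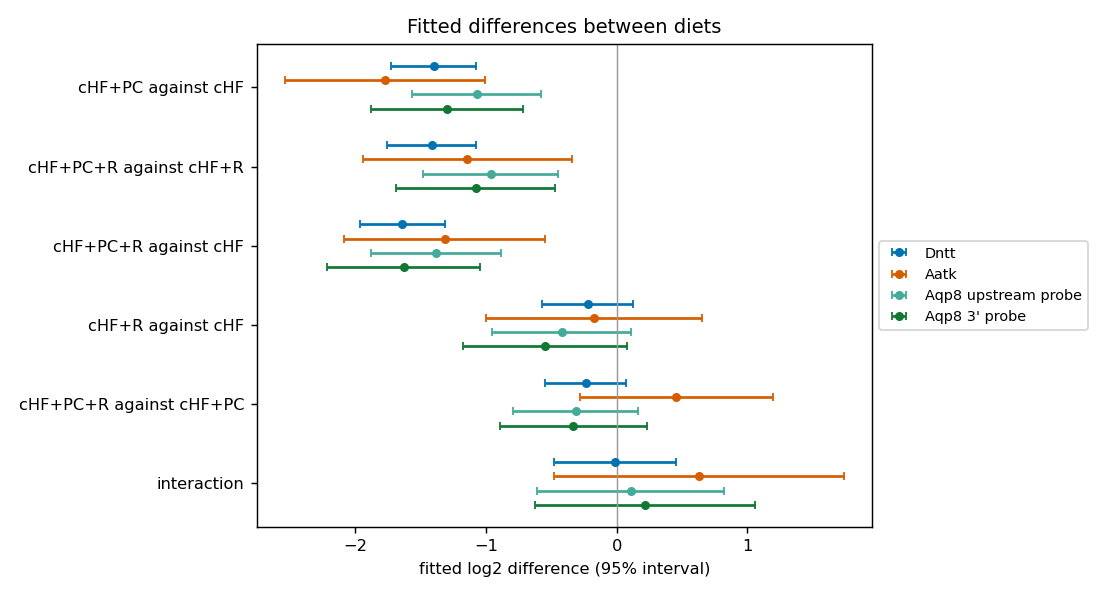
Fitted log2 differences (horizontal axis) with 95% intervals for the 4 probes in 5 comparisons of diets and the interaction, from limma over 29 arrays. Points lie below 0 in the 3 comparisons that add phospholipids, the contrast the genes were chosen on, and all 12 tested intervals of the lower 3 rows include 0.

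The diets also ask whether rosiglitazone moved these genes, which is not the contrast they were chosen on. Yet cHF+R against cHF shares the cHF arrays with that contrast, and cHF+PC+R against cHF+PC shares the cHF+PC arrays. A choice on low cHF+PC against cHF can pull the first difference down, and the second and the interaction up. None of the 4 probes passed the test in cHF+R against cHF, where 2.99% of all probes did, 1.03% lower and 1.95% higher. The fitted difference was -0.22 for Dntt (95% interval -0.57 to 0.13, limma adjusted p = 0.588), -0.17 for Aatk (-0.997 to 0.650, adjusted p = 0.893) and -0.55 for the 3' probe of Aqp8 (-1.18 to 0.08, adjusted p = 0.418). At the upstream probe of Aqp8 it was -0.42 (-0.95 to 0.11, adjusted p = 0.480). Of the 6 cHF+R livers, 3 were below all cHF livers for Dntt, 3 for Aqp8 and 1 for Aatk. Above all cHF livers lay 1 for Dntt, 0 for Aqp8 and 1 for Aatk. The share of all probes with such counts was not taken, so nothing is read from them. Without cHF+R replicate 6 the difference was 0.08 for Aatk and -0.31 for the 3' probe of Aqp8, so 1 liver sets the sign for Aatk.

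Adding rosiglitazone to phospholipids gave no call either. In cHF+PC+R against cHF+PC, where 0.113% of probes passed, 0.0167% lower and 0.0961% higher, the difference was -0.24 for Dntt (-0.55 to 0.08, adjusted p = 0.708) and 0.46 for Aatk (-0.28 to 1.196, adjusted p = 0.782). At the 3' probe of Aqp8 it was -0.33 (-0.90 to 0.23, adjusted p = 0.791), and at the upstream probe -0.31 (-0.79 to 0.17, adjusted p = 0.761). The groups overlapped for all 4 probes. The point estimate was above 0 for Aatk alone, and its interval reaches up to 1.196. With scaling between arrays after loess the Aatk difference was 1.90 (adjusted p = 0.388).

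Averaged over both backgrounds, the rosiglitazone difference was -0.23 for Dntt (-0.46 to 0.00377, adjusted p = 0.311) and 0.14 for Aatk (-0.41 to 0.69, adjusted p = 0.841). For Aqp8 it was -0.44 at the 3' probe (-0.86 to -0.02, adjusted p = 0.272) and -0.37 at the upstream probe (-0.72 to -0.00829, adjusted p = 0.286). Of all probes, 4.02% passed in this comparison, 1.51% lower and 2.51% higher. Both Aqp8 probes had an unadjusted p under 0.05, 0.0405 and 0.0452, and failed the adjustment over 23943 probes. The interaction asks whether the phospholipid difference depends on rosiglitazone. It was -0.02 for Dntt (-0.48 to 0.45, adjusted p = 0.994), 0.63 for Aatk (-0.48 to 1.74, adjusted p = 0.883) and 0.22 for the 3' probe of Aqp8 (-0.63 to 1.06, adjusted p = 0.964), with 0.11 at its upstream probe (adjusted p = 0.975). No probe of the array passed with limma (0% called), while 1599 had an unadjusted p under 0.05. The interval was narrowest for Dntt and widest for Aatk.

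**Figure D3:**
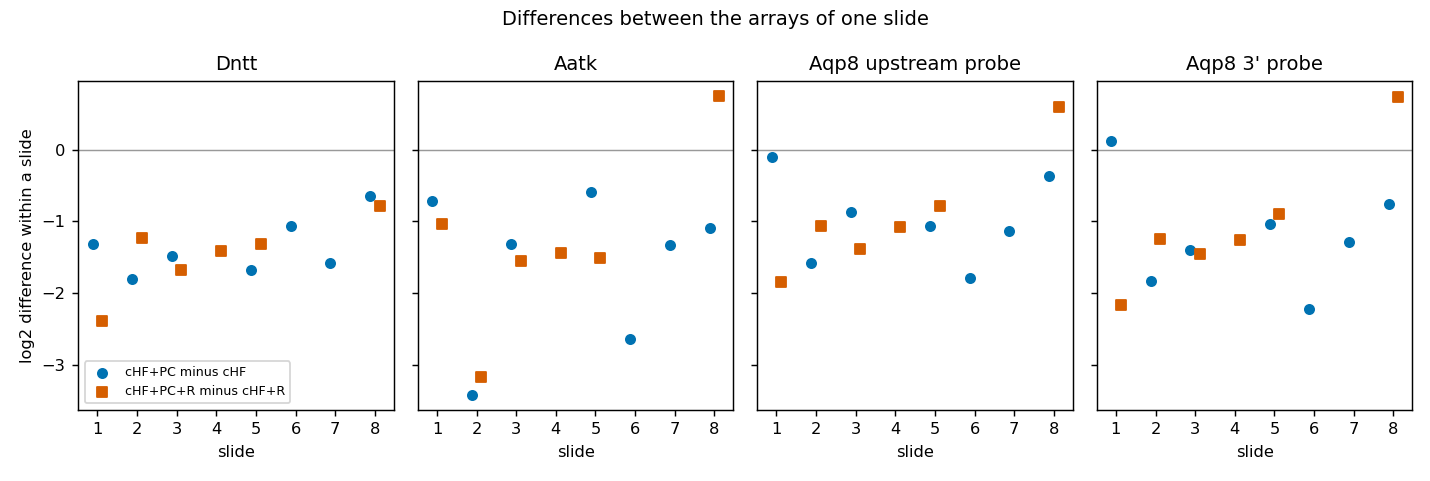
Differences between arrays of the same slide (vertical axis, log2) for cHF+PC minus cHF on 7 slides (circles) and cHF+PC+R minus cHF+R on 6 slides (squares), with 1 panel per probe and slides along the horizontal axis. All points of Dntt lie below 0, which follows from groups that did not overlap. On slide 8 the squares of Aatk and Aqp8 lie above 0, and on slide 1 the circle of the Aqp8 3' probe does.

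Differences within slides describe the contrast the genes were chosen on. Where every liver of a group lay below every liver of the other, their sign on each slide was fixed in advance. That holds for Dntt throughout and for Aatk and the upstream probe of Aqp8 in cHF+PC minus cHF. It also holds for both Aqp8 probes in cHF+PC+R minus cHF. In cHF+PC minus cHF, Dntt was lower on 7 of 7 slides, with a median of -1.49 and a range of -1.80 to -0.64. In cHF+PC+R minus cHF+R it was lower on 6 of 6, with a median of -1.36. Aatk was lower on 7 of 7 slides in cHF+PC minus cHF, with a median of -1.32 and a range of -3.42 to -0.59, and on 5 of 6 in cHF+PC+R minus cHF+R. The 3' probe of Aqp8 was lower on 6 of 7 slides in cHF+PC minus cHF, with a median of -1.28, and on 5 of 6 in cHF+PC+R minus cHF+R, with a median of -1.25. Its upstream probe was lower on 7 of 7 and 5 of 6, with medians of -1.06 and -1.07. In cHF+PC+R minus cHF all 3 genes were lower on 7 of 7 slides. In cHF+PC+R minus cHF+R, Aatk and the 3' probe of Aqp8 turned the other way, by 0.75 and 0.73, on the slide that holds cHF+R replicate 6. In cHF+PC minus cHF, the 3' probe of Aqp8 did so by 0.13 on slide 1.

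Livers of the same diet also differed from each other, and there Aqp8 moved with both other genes, as it did with many genes outside the set. Deviations from the group means were used, which the choice of the genes did not fix, and 6 relations were tested by permuting livers within groups. Aatk and Aqp8 deviated together over the 29 livers (Pearson r = 0.681, permutation p = 0.0007, adjusted p = 0.0042; Spearman rho = 0.671, permutation p = 0.00055). Dntt and Aqp8 did so too (r = 0.591, permutation p = 0.00228, adjusted p = 0.00684; rho = 0.571, permutation p = 0.00271). Neither relation is particular to the set. Among 12856 named genes ordered by r of their deviations with Aqp8, Aatk ranked 248th and Dntt 574th. Dntt and Aatk gave r = 0.352 (permutation p = 0.0977, adjusted p = 0.117; rho = 0.272, permutation p = 0.168), which does not pass. With median centring in place of loess it did, at r = 0.539 (adjusted p = 0.00308). It did not pass with slide means removed, at r = 0.169 (adjusted p = 0.409), or without the 3 arrays that stand apart, at 0.188 (adjusted p = 0.364). Nor did it without the 2 most extreme Dntt livers, at 0.234 (adjusted p = 0.305).

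A first check of these relations left out livers extreme for Aatk or Dntt, while those most extreme for Aqp8 stayed in. Without the 2 livers farthest from the median on the first axis, r was 0.722 for Aatk with Aqp8 and 0.484 for Dntt with Aqp8. Over all 29 livers with slide means removed they were 0.675 and 0.566, and without the 3 arrays that stand apart 0.650 and 0.545. Within single diets, r of Aatk with Aqp8 was 0.437 in cHF+PC+R, 0.907 in cHF+PC, 0.701 in cHF+R and 0.109 in cHF. For Dntt with Aqp8 it was 0.717 in cHF+PC+R, 0.494 in cHF+PC, 0.693 in cHF+R and 0.485 in cHF. By the exact permutation test none of the 24 relations within a diet passed after adjustment, the smallest being Aatk with Aqp8 in cHF+PC (exact p = 0.00479, adjusted p = 0.115).

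**Figure D4:**
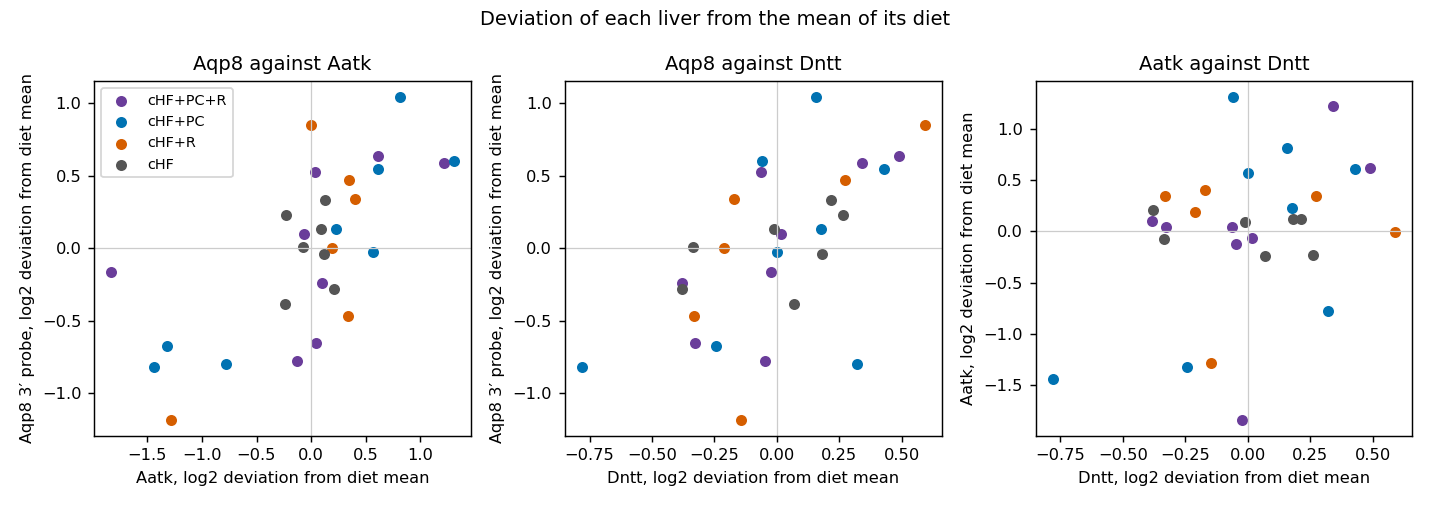
Each liver's log2 deviation from the mean of its diet, for Aqp8 (3' probe) against Aatk, Aqp8 against Dntt and Aatk against Dntt, coloured by diet, with 29 livers per panel. The points rise together in the first panel (r = 0.681) and the second (r = 0.591), and the 4 lowest Aatk points include 3 whose Aqp8 deviation was also at or below -0.67.

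The mean deviation of 19 genes of cholesterol synthesis, the pathway that gives the liver its sterols, was set beside the members in the same way. Dntt deviated with it (r = 0.460, permutation p = 0.0199, adjusted p = 0.0397; rho = 0.446, permutation p = 0.0206, adjusted p = 0.0412). With slide means removed r was 0.516 (adjusted p = 0.0136) and with median centring in place of loess 0.715 (adjusted p = 0.00012), but without the 3 arrays that stand apart it was 0.318 (permutation p = 0.124, adjusted p = 0.248). Without the 2 most extreme Dntt livers r was 0.406 (adjusted p = 0.0689), while rho still passed (adjusted p = 0.0441). For Aqp8 the 2 measures differed, since r did not pass (r = 0.390, permutation p = 0.0613, adjusted p = 0.0920) and rho did (rho = 0.446, permutation p = 0.0288, adjusted p = 0.0432). Its r passed with slide means removed, at 0.515 (adjusted p = 0.0136), and with median centring, at 0.711 (adjusted p = 0.00093), and not without the 3 arrays, at 0.275 (adjusted p = 0.364). Aatk gave r = 0.266 (permutation p = 0.270, adjusted p = 0.270; rho = 0.330, permutation p = 0.123, adjusted p = 0.147), and neither measure passed, though r did with median centring, at 0.532 (adjusted p = 0.0161). Its r did not pass with slide means removed, at 0.218 (adjusted p = 0.371), or without the 2 most extreme Aatk livers, at 0.0624 (adjusted p = 0.782). Without the 3 arrays it was -0.00687 (adjusted p = 0.978).

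The genes whose levels followed each member most closely over the 29 livers were taken from 12856 named genes with a value on every array. These correlations describe shared patterns across arrays that also share the diets, and they carry no test. Dntt was nearest to Apoa4, an apolipoprotein of triglyceride-rich particles (r = 0.915), Fam187b (0.897), the cholesterol synthesis enzyme Dhcr7 (0.894), the glutathione cycle enzyme Ggct (0.884) and Rdh11 (0.880). Aatk was nearest to Tlcd2 (0.898), the membrane fusion protein Stx2 (0.897), Tmem254a (0.896), the scavenger receptor Colec12 (0.895) and Dpy19l1 (0.875). Aqp8 was nearest to Cutal (0.919), the complex I subunit Ndufa8 (0.901), Nudt1, which clears oxidised nucleotides (0.897), the scaffold Pdzk1 (0.884) and Ggct (0.884). Among the same genes, Aqp8 ranked 23rd for Dntt (r = 0.835) and 67th for Aatk (r = 0.794), and Aatk ranked 160th for Dntt (r = 0.718). These ranks on levels include the shared phospholipid difference the genes were chosen on. On deviations from diet means the ranks were 104, 243 and 1320. Read the other way on deviations, Dntt ranked 574th and Aatk 248th for Aqp8, and Dntt ranked 2234th for Aatk.

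With the diet means removed, other genes came first. Dntt was then nearest to the Golgi protein gene Gask1a (r = 0.798), Nell1 (0.785), Pstpip2 (0.766), the sphingomyelinase gene Smpd3 (0.757) and Pxdc1 (0.755). Aatk was nearest to the calsyntenin gene Clstn3 (0.941), Proca1 (0.899), the semaphorin gene Sema5b (0.882), Colec12 (0.882) and the transcription factor gene Olig1 (0.882). Aqp8 was nearest to Nudt1 (0.908), the annexin partner gene S100a10 (0.902), Tmem109 (0.879), the recombination gene Xrcc3 (0.871) and Raet1e (0.870). Colec12 for Aatk and Nudt1 for Aqp8 were among the nearest 5 on both measures, and none of the nearest 5 of Dntt was.

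Of these neighbours, Clstn3 and Proca1 rose with rosiglitazone averaged over both backgrounds, by 1.34 (limma adjusted p = 0.00134) and 0.69 (adjusted p = 0.00120), where Aatk gave 0.14 (adjusted p = 0.841). The genes that varied most like Aatk from liver to liver thus include 2 that passed the rosiglitazone test that Aatk did not pass. The difference between them was not tested.

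Relatives and partners of the 3 genes were looked at as lists, in the phospholipid difference averaged over rosiglitazone, where 15.6% of all probes passed, 8.15% lower and 7.42% higher. For the same comparison the median difference over all genes was -0.00399. Of 11 other aquaporins, 6 were tested, none passed with limma and 2 had an unadjusted p under 0.05. Their median was -0.04, with Aqp7, a glycerol channel, at -0.12 (SE 0.0545, adjusted p = 0.149), Aqp1 at -0.15 (SE 0.0714, adjusted p = 0.164) and Aqp2 at 0.06. Aqp2 rose with rosiglitazone by 0.22 (SE 0.0485, adjusted p = 0.00598), the only call among the 6 in that comparison, where Aqp7 was at 0.13 (adjusted p = 0.223). Aqp3, Aqp5, Aqp6, Aqp12 and Mip did not pass the filter.

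Of 16 genes of family X polymerases and of the end joining that completes V(D)J recombination, 14 were tested, and Nhej1, a ligation factor, fell by 0.25 (SE 0.0417, adjusted p = 0.000165). Polb, a repair polymerase of the same family as Dntt, was at -0.10 (SE 0.0425, adjusted p = 0.124), and Xrcc4 was at -0.06 (SE 0.0335, adjusted p = 0.227). The median of the list was -0.00525. With rosiglitazone none of the 14 passed with limma and 3 had an unadjusted p under 0.05, among them Xrcc5 at -0.10 (adjusted p = 0.115) and Tdp2 at 0.14 (adjusted p = 0.153). Rag1 and Rag2, the recombinase that cuts antigen receptor genes in the cells that use Dntt, did not pass the filter.

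Of 14 lemur tyrosine kinases and Cdk5 partners, 13 were tested and 2 rose. These were Cttn, an actin-binding protein, by 0.11 (SE 0.0301, adjusted p = 0.0151), and Rab11b, a recycling endosome GTPase, by 0.09 (SE 0.0275, adjusted p = 0.0236). Lmtk2, a kinase of the same family as Aatk, was at 0.12 (SE 0.0420, adjusted p = 0.0558), and the median of the list was 0.02. With rosiglitazone none of the 13 passed with limma and 3 had an unadjusted p under 0.05, with Cdk5 at -0.10 (adjusted p = 0.178) and Cdk5rap1 at -0.31 (adjusted p = 0.254). Cdk5r2 did not pass the filter.

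Of 20 genes of cholesterol synthesis 19 were tested and 18 fell, with a median of -0.73. Fdps, which makes farnesyl diphosphate, fell by 1.45 (SE 0.152, adjusted p = 1.41e-07), Pmvk by 1.06 (SE 0.111, adjusted p = 1.38e-07) and Sc5d by 0.64 (SE 0.0780, adjusted p = 2.24e-06). With rosiglitazone Acat2 fell by 0.21 (adjusted p = 0.00138), the only call of the list. Hmgcs1 did not pass the filter. The differences of Dntt, Aatk and Aqp8, averaged in the same way, were -1.41, -1.46 and -1.19 (3' probe), and these were large by the choice of the genes.

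Of 16 clock genes 14 were tested, 4 rose and 0 fell at the threshold, with a median of 0.21. Point estimates of some of the others lay below 0, down to -0.54 (limma adjusted p = 0.113). Cry2, a repressor of the clock, rose by 0.35 (SE 0.0588, adjusted p = 0.000158), Tef by 0.72 (SE 0.174, adjusted p = 0.00544) and Nr1d1 by 0.36 (SE 0.104, adjusted p = 0.0157). With rosiglitazone Cry2 fell by 0.22 (adjusted p = 0.0288), the only call of the list, and Clock was at 0.19 (adjusted p = 0.202). Npas2 and Per3 did not pass the filter. The hour at which livers were taken was not known here, and the part of clock phase in the levels of the 3 genes was not tested.

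Lymphoid cells, where Dntt is best known, were followed by their markers. Of 6 lymphoid progenitor markers, Rag1, Rag2, Il7r and Igll1 did not pass the filter, and of the 2 tested none passed with limma (1 at an unadjusted p under 0.05). Those were Vpreb1, part of the surrogate light chain, at -0.08 (SE 0.0354, adjusted p = 0.114), and Flt3 at 0.01 (adjusted p = 0.827). The mean log2 ratio of these 2 lay between -0.08 and 0.10 in cHF+PC+R livers, between -0.16 and -0.000923 in cHF+PC livers, between -0.12 and 0.12 in cHF+R livers and between -0.06 and 0.12 in cHF livers.

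Of the other lymphoid lists, 5 of 6 B lymphocyte markers were tested and Vpreb3 rose by 0.22 (SE 0.0527, adjusted p = 0.00536), while Blnk was at -0.27 (SE 0.111, adjusted p = 0.101). All 6 T lymphocyte markers were tested and none passed, with limma or at an unadjusted p under 0.05 (0 of 6). Of 6 neuron markers, 3 were tested, and Syt1, a sensor of vesicle fusion, rose by 0.55 (SE 0.0846, adjusted p = 5.10e-05). Stmn2, Rbfox3 and Nefl were not among the probes tested. The part of lymphoid or neural RNA in the differences of Dntt and Aatk was not tested.

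Pancreatic acinar cells and intestinal epithelium express Aqp8 as well. Of 8 acinar markers 3 were tested and Cel fell by 0.09 (SE 0.0291, adjusted p = 0.0396), while Cpa1, Cpb1, Pnlip, Cela2a and Pnliprp1 did not pass the filter. The mean of the 3 lay between -0.30 and 0.02 in cHF+PC+R livers, between -0.15 and 0.12 in cHF+PC livers, between -0.06 and 0.15 in cHF+R livers and between -0.03 and 0.16 in cHF livers. Of 6 intestinal markers 3 were tested, none passed with limma and 0 had an unadjusted p under 0.05, with Fabp2 at -0.18 (adjusted p = 0.239). Vil1, Cdx2 and Lct did not pass the filter. The part of acinar RNA in the Aqp8 difference was not tested.

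Among cells that belong to the liver, 1 of 8 hepatocyte markers fell (Ttr, by 0.39, adjusted p = 0.000648) and 2 rose (Cps1, by 0.49, adjusted p = 0.00138, and Ahsg, by 0.35, adjusted p = 0.0267). None of the 4 cholangiocyte markers tested passed with limma or at an unadjusted p under 0.05 (0 of 4). None of the 6 Kupffer cell markers passed with limma and 1 had an unadjusted p under 0.05. Of 6 endothelial markers Cdh5 fell by 0.16 (adjusted p = 0.00178), and of 6 markers of stellate cells and fibroblasts Lrat, which stores retinol as its ester, fell by 0.53 (adjusted p = 2.03e-06).

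Of 5 adipocyte markers 2 were tested. Cfd, the serine protease adipsin, fell by 2.06 with phospholipids averaged over rosiglitazone (SE 0.569, adjusted p = 0.0134), while Retn was at -0.11 (adjusted p = 0.618). By comparison, Cfd fell by 3.01 in cHF+PC+R against cHF+R (adjusted p = 0.0273). It was at -1.11 in cHF+PC against cHF (adjusted p = 0.477) and at 1.505 in cHF+PC+R against cHF (adjusted p = 0.252), and neither passed. Both Cfd and Retn rose with rosiglitazone, Cfd by 3.56 (SE 0.569, adjusted p = 0.000192) and Retn by 0.46 (SE 0.124, adjusted p = 0.0312). The mean of the 2 lay between -2.71 and 2.01 in cHF+PC+R livers, between -3.24 and -1.46 in cHF+PC livers, between -0.72 and 1.92 in cHF+R livers and between -2.49 and -1.36 in cHF livers. Adipoq, Plin1 and Lep did not pass the filter, and the part of adipocyte RNA in the differences of the 3 genes was not tested.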

How the data were processed

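Liver RNA of 29 mice was labelled with Cy5 and hybridised against a Cy3 pool of all samples, 1 liver per array, with no dyes swapped, per the labels. Per the labels, the authors left out 1 cHF and 1 cHF+R array before they normalized. The deposited scanner files hold linear intensity per spot and channel from Agilent Feature Extraction 10.5.1.1, per the file headers, before any normalization. A value table that the authors deposited beside them holds log2 values in 25806 rows, with a median of 9.03 in every column. Its columns follow the Cy5 signal of their own arrays (r from 0.990 to 0.999), no ratio was taken, and how it was normalized is unknown here, so it was used only as an alternative.

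Spot intensities were corrected with normexp (offset 50), loess-normalized within each array (limma 3.58.1, R 4.3.3), and averaged per probe. Control spots and spots flagged as outliers had no weight. Probes measured on at least 20 arrays were kept where 6 or more arrays had them well above background in the liver channel, which left 23943 of 39429. A model with 4 group means was fitted with limma to all arrays, two-sided, with Benjamini-Hochberg adjustment over all probes and a threshold of 0.05. The number of arrays limits the precision. Errors of fitted differences are standard errors of this fit, with 95% intervals. The test was checked on simulated data with known changes. The simulated noise was independent between probes and arrays, so shared slide effects and arrays of wider spread were not covered.

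The genes and the lists were chosen with earlier results of these data known, so contrasts that add phospholipids carry no p for the 3 genes. A list gene with several probes was read from the brightest on average. Genes named from a list are up to 3 with the smallest adjusted p for phospholipids and up to 2 for rosiglitazone, both averaged over the other factor. From marker lists, genes that passed or bear on the 3 genes were named after their values were seen. The nearest 5 genes per member, on levels and on deviations from diet means, and the neighbours in the ranking of cHF+PC against cHF were named too. Correlations used 100000 permutations of livers within groups, or the exact test within a group. Aqp8 stands for its 3' probe there and in the alternatives. Same-numbered livers did not deviate together (median r 0.027 over 40 pairs), so the replicate number was treated as a name. For the cholesterol synthesis list, 1 gene that the naming rule selects is not reported here.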

Additional observations from a re-analysis of the deposited data

Results flagged for a closer look

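In 2 of the groups a single liver lay far below the others for Aatk, by a gap to the next liver that Dixon's test marks as large for the range of the group. Replicate 6 of cHF+R had an Aatk level of -1.05, the lowest of 6 livers, with the next at 0.22. Replicate 2 of cHF+PC+R was at -2.75, the lowest of 8, with the next at -1.04. The test was run for 4 probes in 4 groups, and chance alone marks about 1 in 20 such sets of values. Both are among the 3 arrays whose deviations spread most over all probes, and the part of array quality in these levels was not tested. At the 3' probe of Aqp8 the same livers were at -1.16, the lowest of its group, and at -1.22.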

How the results depend on the processing

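All phospholipid differences of the 3 genes stayed below 0 under each alternative tried. For cHF+PC against cHF, 2 moved by more than the spread between livers, Dntt to -1.81 with Feature Extraction's processed signals and Aatk to -2.97 with scaling between arrays. No rosiglitazone or interaction test of a member passed under any alternative. Several of these small differences changed sign, and the cause was not tested. With scaling between arrays cHF+PC+R against cHF+PC was 0.205 for Dntt, 0.492 for Aqp8 and 0.168 at its upstream probe, the averaged rosiglitazone difference was 0.0668, 0.0784 and 0.0100, and cHF+R against cHF was 0.168 for Aatk. With median centring that last value was 0.108, and without the 3 arrays that stand apart, an alternative chosen after seeing the data, 0.0827. The interaction of Dntt was 0.145 without background subtraction, 0.144 with processed signals, 0.277 with scaling, 0.0653 with Cy5 alone and 0.148 with the deposited table. The interaction of Aqp8 was -0.0432 with median centring, -0.160 with array weights and -0.112 without the 3 arrays, and at the upstream probe -0.0399, -0.253 and -0.165. Leaving out 1 array gave ranges of -0.127 to 0.103 for the interaction of Dntt, -0.254 to 0.0827 for Aatk in cHF+R against cHF, -0.0189 to 0.387 for the interaction of Aqp8 and -0.0946 to 0.250 at its upstream probe. Scaling also moved Aatk to 1.90 in cHF+PC+R against cHF+PC, 1.04 in the averaged rosiglitazone difference and 1.73 in the interaction, against 0.46, 0.14 and 0.63. With median centring, correlations that had not passed did so for Dntt with Aatk (0.539) and for Aatk (0.532) and Aqp8 (0.711) with cholesterol synthesis, the last also with slide means removed (0.515). Dntt with cholesterol synthesis no longer passed without the 3 arrays (0.318) or without 2 livers (0.406), and Aatk with it was -0.00687 without the 3 arrays. The replicate number as a block changed no call of a member, with cHF+PC against cHF at -1.47 for Dntt, -1.86 for Aatk and -1.38 for Aqp8, and 1048 probes called there against 921 without it.

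The count of all probes called depended more on the setting. In cHF+PC against cHF it was 921, with 1457 without background subtraction, 12 with median centring, 357 with scaling, 453 with Cy5 alone and 1415 with array weights (58.2% higher, against 48.2%). For cHF+PC+R over cHF+R it was 1605, with 61 (13.1% higher, against 46.7%), 110 (32.7%) and 801 (56.9%) for median centring, scaling and Cy5 alone, and 918 with the compared groups alone. For cHF+PC+R over cHF it was 2162, with 105, 190 and 935 for those first 3 settings. In the averaged phospholipid difference it was 3727, with 215 (26.5% higher, against 47.7%), 1581 and 2248 (57.7%). In cHF+R against cHF it was 715, with 96 (93.8% higher, against 65.5%), 96 (87.5%) and 348. In the averaged rosiglitazone difference it was 962, with 151 (92.7% higher, against 62.4%), 298 (75.5%) and 501, and 1499 with array weights. For cHF+PC+R over cHF+PC it was 27, between 2 with median centring and 152 with array weights. The interaction gave 0, with 3 for array weights and 4 without cHF+PC+R replicate 6. Calls in the deposited table were 30.3% higher for cHF+PC+R over cHF, 57.9% for cHF+PC+R over cHF+R, 39.4% for cHF+R over cHF and 33.5% for averaged rosiglitazone. Leaving out 1 array gave 518 (cHF+PC replicate 4) to 1038 calls in cHF+PC against cHF, with 604, 557 and 606 without cHF replicates 3, 5 and 6. It gave 886 (cHF+R replicate 1) to 2307 in cHF+PC+R against cHF+R and 7 to 58 in cHF+PC+R against cHF+PC. Median centring moved the median of all probes by 0.143 in cHF+R against cHF and by 0.115 in the averaged rosiglitazone difference.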
